A study of Mus musculus with 6 samples.

Results

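The Myc and Max network was examined in RNA of mouse bone marrow taken before and after a sort for green fluorescent protein (GFP). Its 10 genes, Myc, Mycn, Max, Mxd1, Mxd3, Mxd4, Mxi1, Mnt, Mga and Mlx, were taken by symbol from the platform's annotation, and all 10 of them were measured, out of 18193 named genes. Where a gene had several probe sets, the one with the highest mean stood for it, and the 26 probe sets of the network are all described. Each pool held marrow of 4 to 5 mice of both sexes, 3 to 6 months old and hemizygous for the transgene Tg(Ren1-GFP)2Kwg, in which the renin promoter drives GFP. Each of the 3 pools gave a presort sample of whole marrow (n = 3) and a GFP-sorted sample (n = 3), so presort samples also carried the transgene and also held GFP-positive cells. Scatter gates left out red cells, debris and joined cells, and the lower GFP limit let in 0.1% of cells from mice without the transgene. Renin itself was not analysed here. Levels are log2 of the deposited intensity of an Affymetrix 3' expression array, with 1 array a sample.

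Proteins of this network bind DNA in pairs through a basic helix-loop-helix leucine zipper and recognise the E-box CACGTG. Myc and Mycn pair with Max and raise transcription of genes for growth and division. The Mxd proteins, Mxi1 and Mnt compete for Max and recruit the Sin3 corepressor to the same sites. Mga is a large protein that joins Max to a variant Polycomb complex, and Mlx is the partner of the glucose-sensing Mondo proteins and of some Mxd proteins. In blood cells Myc is known for driving growth of progenitors, Mxd1 for its rise as myeloid cells mature, and Mxd3 for its expression in dividing cells.

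The E-box that these proteins bind also stands in front of several network genes, which is why these stretches are shown. RefSeq promoters (build GRCm38.p6, 250 bases before to 50 after a gene's start) were at hand for 9 of the 10 genes, all but Myc, and those of Max, Mxd4, Mnt and Mlx held CACGTG, whose reverse complement is the same word. Capitals mark the E-box, and each stretch reads 5′ to 3′ on the gene's strand and ends at or before the start site, or at the E-box that spans it.
Mxd4 (chr5:34187900-34187953, minus strand): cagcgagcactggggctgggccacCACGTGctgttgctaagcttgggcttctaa
Mnt (chr11:74830777-74830830, plus strand): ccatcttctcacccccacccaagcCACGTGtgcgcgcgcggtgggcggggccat
Mlx (chr11:101087226-101087279, plus strand): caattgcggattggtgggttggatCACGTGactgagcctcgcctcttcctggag
Max (chr12:76962246-76962275, minus strand): ctaccccggcgcggtgagcccggtCACGTG
The first base of the E-box lay 219 bases before the start in Mxd4, 123 in Mnt, 40 in Mlx and 3 in Max. Over all 27025 genes with a promoter in that table, 8.09% held the word, and over the named genes on the array 10.2%. Of these 4 genes, Mxd4 was higher in sorted samples and the others did not pass the test. The promoters of Mycn, Mxd1, Mxd3, Mxi1 and Mga did not hold these letters in this window.

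In sorted samples 4 members were lower (Mxd3, Mxd1, Myc and Mxi1) and 2 were higher (Mxd4 and Mga), while Mycn, Max, Mnt and Mlx did not pass the test (limma, Benjamini-Hochberg adjusted p under 0.05 over all genes). This is 6 of 10 members, against a background of 32.6% of all genes called, 18.1% lower and 14.5% higher. Of them 5 were also at least 2-fold apart, 2 higher (5.8% of all genes) and 3 lower (10.3%), and the largest differences were those of Mxd3 and Mxd1. No term for the pool was in this fit, although the pools pair the samples. With the pool as a block 7 members were called, the same 6 and also Mnt as higher, beside 6408 of all genes. With each array centred on its median, 66.7% of called genes were higher in place of 44.4%, and 8 members were called, the same 6 in the same directions and also Mycn and Mnt as higher. The median difference was -0.11 over the members and -0.0021 over all genes. The presort and sorted arrays did not overlap for 7 members, the 6 called ones and Mnt, against 44.4% of all genes; 3 of the 7 lay higher (20.9% of genes) and 4 lower (23.6%). In bulk samples such as these, fewer cells of a type and less RNA per cell cannot be told apart.

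**Figure D1:**
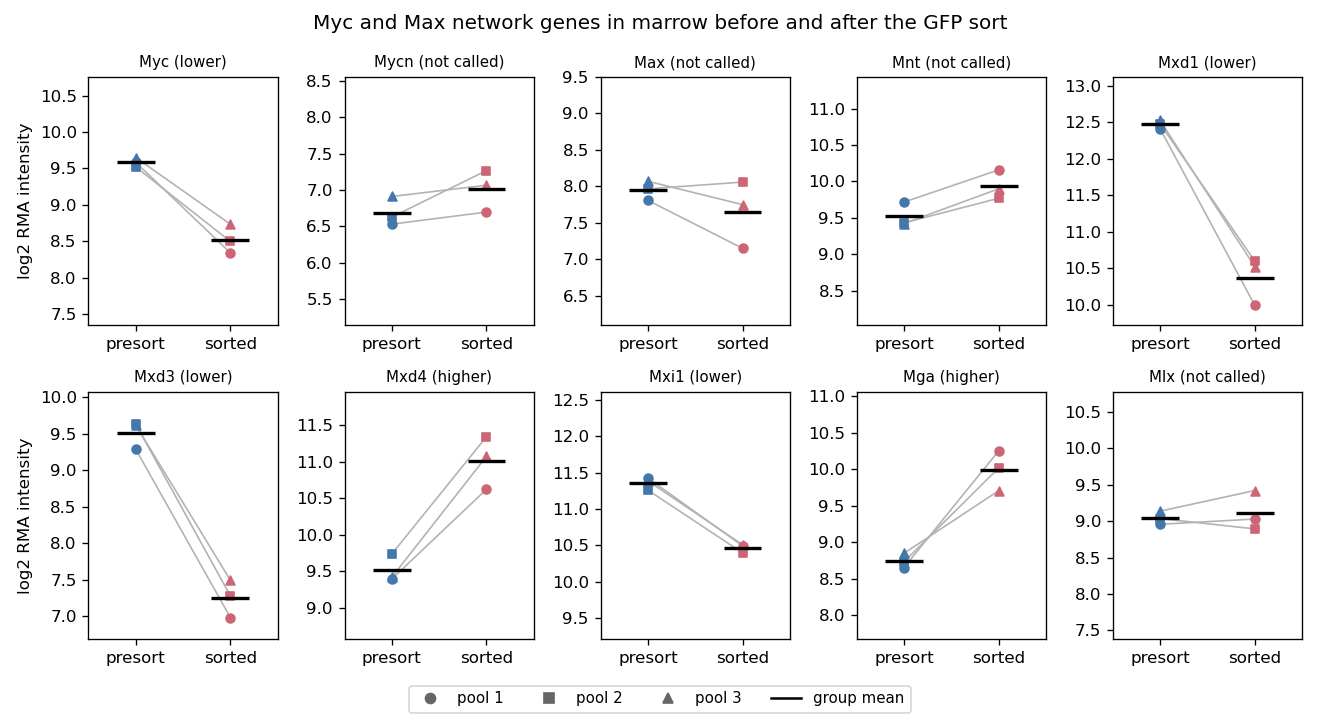
Log2 RMA intensity (vertical axes, each spanning the same range) of the 10 network genes in presort and sorted samples, with a symbol for each pool, grey lines joining samples of 1 pool and black bars for group means. Myc, Mxd1, Mxd3 and Mxi1 sit lower and Mxd4 and Mga higher in every sorted sample than in any presort sample, whereas Mycn, Max and Mlx overlap.

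Sorted samples differed from presort in cell type markers, cell division genes and RNA quality, and the part of these in the results below was not tested. B lineage markers were higher (11 of 11 measured, 9 to 11 with an array or pool left out, median 2.27; summed intensity 29360 to 42100 in presort and 96430 to 104800 in sorted samples). One of them, Ighm, lost its call without pool 2 or pool 3 and was lower with the mean of its probe sets (-1.21, limma adjusted p = 0.00123). Lower were 9 of 10 erythroid markers (82360 to 85620 and 16720 to 34560), 13 of 13 neutrophil markers (218400 to 230000 and 59050 to 111100) and 10 of 11 monocyte and macrophage markers (19280 to 25950 and 5540 to 8739). With an array or pool left out these 3 counts were 7 to 9, 10 to 13 and 9 to 10. With the beta-actin covariate they were 7, 10 and 9. Of the T and NK list 2 of 9 and of the megakaryocyte list 3 of 6 were lower (1 to 5 in either list when an array or pool was left out), and none was higher. The summed intensity of the T and NK list was 4242 to 4616 in presort and 921.1 to 1774 in sorted samples. That of the megakaryocyte list was 1314 to 6685 and 666 to 2453, which overlap. All 17 measured cell division genes were lower (median -2.60, 71070 to 71870 and 10530 to 17010). Of 18 immediate early genes 15 were higher and 1 was lower (median 1.87). The higher ones numbered 10 without pool 2, 9 without pool 3 and 8 with the beta-actin covariate described below. No marker is at 0 on this scale. Signal at the 3' end of beta-actin was above that at the 5' end by 0.81 to 1.11 (log2) in presort and by 3.17, 1.54 and 1.43 in sorted replicates 1, 2 and 3. This difference served as the covariate in 1 alternative fit, and sorted replicate 1 also had the highest difference for Gapdh (3.84). With 3 arrays against 3 the two-sided exact permutation p was 0.1 for each. This test left out the pairing by pool, and 0.1 is the smallest it allows.

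Myc, the founding member of the family and an activator of growth genes, was about 2-fold lower after the sort. Its level was 9.58, 9.52 and 9.65 in presort replicates 1, 2 and 3 and 8.34, 8.50 and 8.73 in sorted replicates 1, 2 and 3. The presort samples lay close together (SD 0.06), and every sorted sample lay below all of them. The difference was -1.06 ± 0.13 (SE, log2; 2.08-fold lower; limma adjusted p = 0.000465), and it was -1.24 in pool 1, -1.02 in pool 2 and -0.91 in pool 3. Among all genes, 84.8% differed by less. A single probe set reads Myc here, so no second one was there to compare. Most immediate early genes, a class to which Myc is also counted, moved the other way in these samples, 15 of 18 being higher and 1 lower. Jun rose by 4.19 ± 0.98 (SE) and Egr3, a zinc finger factor, by 3.32 ± 0.31. The rise of Jun was not called without pool 2 (limma adjusted p = 0.0878), with an intensity trend in the prior (0.0515) or with the beta-actin covariate (0.0579).

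Mycn, the paralog that can take the place of Myc in some tissues, did not pass. It stood at 6.53, 6.63 and 6.91 in presort and at 6.70, 7.27 and 7.07 in sorted replicates 1, 2 and 3. The groups overlapped, with sorted replicate 1 below presort replicate 3. The difference was 0.32 ± 0.17 (SE, log2, limma adjusted p = 0.225), positive in each pool and largest in pool 2 at 0.64. The other 2 probe sets of Mycn stood at 0.34 and 0.06 and did not pass either. The gene was called higher when sorted replicate 1 was left out (0.48, adjusted p = 0.0486), with the beta-actin covariate (0.64, 0.0321), with arrays centred on their medians (0.55, 0.0296) and with quantile normalization over genes (0.53, 0.0381).

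Max, the common partner of Myc, Mycn, the Mxd proteins, Mnt and Mga, did not pass. Its level was 7.81, 7.97 and 8.07 in presort and 7.15, 8.06 and 7.75 in sorted replicates 1, 2 and 3. Sorted replicate 1, the array with the highest 3' to 5' differences, was the lowest of all 6 arrays, and the other two sorted arrays lay within or just under the presort range. The difference was -0.29 ± 0.22 (SE, log2, limma adjusted p = 0.392) with all arrays, -0.04 without sorted replicate 1 and 0.19 with the beta-actin covariate, so its sign is not settled. Like Myc, Max is read by 1 probe set.

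Mxd1, an antagonist of Myc that rises as cells leave the cycle and mature, fell about 4-fold. It stood at 12.42, 12.48 and 12.53 in presort and at 9.99, 10.60 and 10.52 in sorted replicates 1, 2 and 3. The presort arrays lay close together (SD 0.06), and the gap down to the highest sorted array was far wider than the spread in either group (sorted SD 0.33). The difference was -2.10 ± 0.17 (SE, log2; 4.30-fold lower; limma adjusted p = 5.88e-05). All 3 probe sets of Mxd1 fell, the others at -2.22 and -0.53. The call of the last was lost without presort replicate 2 (limma adjusted p = 0.0540) or 3 (0.0719), without pool 2 (0.0783) or 3 (0.139) and with the beta-actin covariate (0.136).

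Mxd3, which unlike Mxd1 is known from dividing cells, fell by a similar amount. Its level was 9.29, 9.63 and 9.62 in presort and 6.98, 7.28 and 7.49 in sorted replicates 1, 2 and 3. The highest sorted array, replicate 3, still lay far below the lowest presort array, replicate 1. The difference was -2.26 ± 0.16 (SE, log2; 4.80-fold lower; limma adjusted p = 3.87e-05), with -2.31, -2.36 and -2.13 in pools 1, 2 and 3. Its other probe sets fell too, at -1.39 and -1.27. For comparison, the cell division genes Birc5, which encodes survivin, and Top2a, the DNA topoisomerase of dividing cells, stood at -3.12 and -2.23.

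Mxi1, also called Mxd2, fell by less than Mxd1 and Mxd3 at the probe sets that stand for the genes. It was at 11.42, 11.26 and 11.39 in presort and at 10.49, 10.40 and 10.51 in sorted replicates 1, 2 and 3. Both groups were tight (SD 0.09 and 0.06), and all sorted arrays were below presort. The difference was -0.89 ± 0.11 (SE, log2; 1.85-fold lower; limma adjusted p = 0.000404). Its second probe set stood at -0.64 and missed the threshold (adjusted p = 0.0555 over 34945 probe sets), and it passed with the replicate number as a block (0.0166).

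Mxd4, the member of the Mxd family that is known from resting and differentiated cells, moved the other way. It stood at 9.39, 9.74 and 9.42 in presort and at 10.62, 11.35 and 11.08 in sorted replicates 1, 2 and 3. Every sorted sample lay above every presort sample. The difference was 1.50 ± 0.20 (SE, log2; 2.83-fold higher; limma adjusted p = 0.000671), lowest in pool 1 at 1.23. All 4 of its probe sets rose, the others by 1.19, 0.80 and 0.66, and with the beta-actin covariate the rise of the gene was 1.86. The calls of the last 2 were less firm. That of the probe set at 0.80 was lost without presort replicate 1 or 2, sorted replicate 2 or 3, pool 2 or pool 3 and with log2(intensity + 32) (limma adjusted p of 0.0663 to 0.242), and that of the one at 0.66 without presort replicate 2 (0.0638), pool 2 (0.138) or pool 3 (0.0594).

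The changes of the 4 Mxd family genes were set against each other within arrays. The change of Mxd1 minus that of Mxd4 was -3.66 to -3.49 (log2) in the 3 pools, and that of Mxd3 minus Mxd4 was -3.97 to -3.54. Minus the change of Mxi1, that of Mxd1 was -1.49 to -1.02 and that of Mxd3 was -1.50 to -1.25. At the brightest probe sets both thus fell further than Mxi1 in every pool. The dimmest probe set of Mxd1, at -0.53, fell less than either probe set of Mxi1 (-0.89 and -0.64). With the mean of probe sets the differences were -1.62 for Mxd1, -1.64 for Mxd3 and -0.76 for Mxi1. Mxd4 minus Mxi1 gave 2.16 to 2.53. Mxd1 and Mxd3 differed in their change by 0.16 ± 0.30 (SD over pools, n = 3) with the sign turning in pool 1. Over the 6 pairs of genes the two-sided exact permutation p was 0.1 (0.12 adjusted over the pairs) for each pair but Mxd1 with Mxd3 (0.3). This test left out the pools, and 0.1 is the smallest it allows with 3 against 3 arrays.

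Mnt, a widely expressed antagonist of Myc, did not pass in the fit without pairing. It stood at 9.72, 9.43 and 9.42 in presort and at 10.16, 9.77 and 9.90 in sorted replicates 1, 2 and 3. The groups did not overlap, and each sorted sample exceeded its presort partner by 0.34 to 0.48. The difference was 0.42 ± 0.14 (SE, log2, limma adjusted p = 0.0611). With the pool as a block it was called (± 0.11, limma adjusted p = 0.0246), and the labels pair these samples by pool. Its second probe set, at 5.91 in presort, stood at -0.29 (adjusted p = 0.126), so the probe sets of Mnt disagree in sign, and the mean of them gave 0.07. With the beta-actin covariate the difference was 0.19.

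Mga rose at the probe set that stands for it. It was at 8.65, 8.73 and 8.85 in presort and at 10.25, 10.02 and 9.71 in sorted replicates 1, 2 and 3. All sorted samples lay above presort, and the rise was 1.60 in pool 1, 1.29 in pool 2 and 0.86 in pool 3. The difference was 1.25 ± 0.15 (SE, log2; 2.38-fold higher; limma adjusted p = 0.000500). The other 4 probe sets of Mga stood at 0.66, 0.33, 0.32 and 0.20, all above 0 and none called, and the mean of all 5 was 0.55. The probe set at 0.66 read 7.96 in sorted replicate 1 against 9.14 and 9.20 in sorted replicates 2 and 3. It rose by 1.06 without that array (limma adjusted p = 0.000905) and by 1.41 with the beta-actin covariate (0.00184).

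Mlx, the Max-like partner of the Mondo proteins, did not pass. Its level was 8.96, 9.03 and 9.14 in presort and 9.03, 8.89 and 9.42 in sorted replicates 1, 2 and 3. The groups overlapped, and pool 2 had the opposite sign to pools 1 and 3. The difference was 0.07 ± 0.15 (SE, log2, limma adjusted p = 0.793), 19.9% of genes had a smaller one, and the second probe set stood at -0.13. The sign of Mlx turned without sorted replicate 3, without pool 3 and with the mean of its probe sets.

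**Figure D2:**
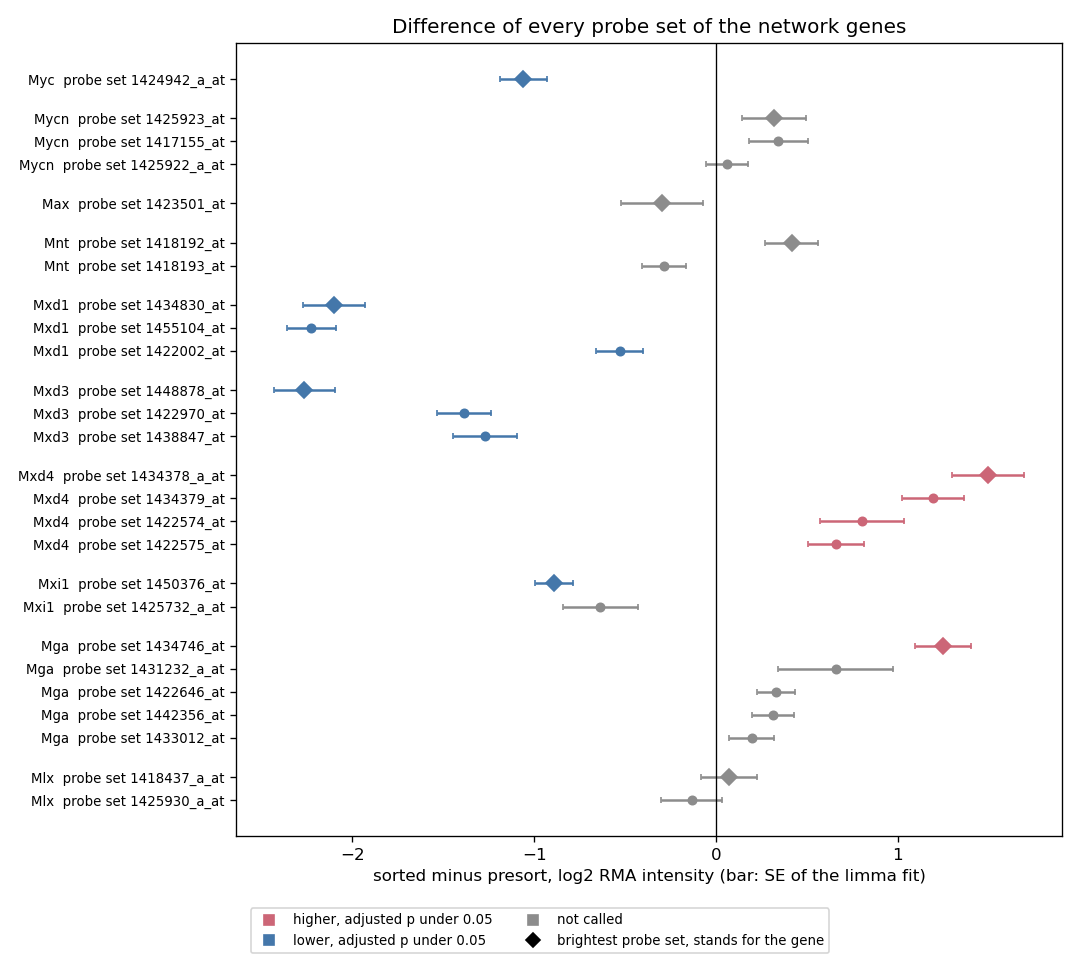
Sorted minus presort difference (horizontal axis, log2 RMA intensity) of the 26 probe sets of the network, with bars for the SE of the limma fit; diamonds mark the probe set that stands for the gene and colours mark the call. The 3 probe sets of Mxd1 and of Mxd3 lie below 0 and the 4 of Mxd4 above 0, while the 2 of Mnt and of Mlx lie on opposite sides.

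By probe set, 13 of 26 were called, 5 higher and 8 lower, against 28.8% of all 34945 probe sets, 13.5% higher and 15.3% lower. The called ones were all those of Myc, Mxd1, Mxd3 and Mxd4 and 1 each of Mxi1 and Mga. The count was 10 without presort replicate 2, pool 2 or pool 3 and 17 with array weights, the fewest and the most over the alternatives run on probe sets. The calls of 1 probe set of Mxd1 and 2 of Mxd4 were among those lost, as given above.

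Of the 3 other genes of the network, Mlxip, which encodes the Mondo protein MondoA, rose by 1.91 ± 0.19 (SE, log2, from 9.59 to 11.50; limma adjusted p = 0.000146). Mycl and Mlxipl, the latter encoding the Mondo protein ChREBP, did not pass, at 0.17 and 0.14. Of 7 genes commonly described as targets of Mlx with its Mondo partners 2 were higher and 4 lower, with a median of -0.58. These are 28.6% and 57.1%, beside 14.5% and 18.1% of all genes. Txnip, an inhibitor of glucose uptake and the best known of these, rose by 1.01 ± 0.17 (SE), while its relative Arrdc4 fell by 2.01 ± 0.27. Pklr, the pyruvate kinase of liver and red cells, fell by 1.02 and was not called without pool 2 (limma adjusted p = 0.0703) or with the beta-actin covariate (0.0889). Acaca, an enzyme of fatty acid synthesis, fell by 0.72 and was not called without pool 2 (0.0574), without pool 3 (0.0895) or with median centring (0.0504). The rise of Acly, which supplies acetyl-CoA for the same pathway, was 0.43, and it was lost in 9 of 19 alternatives. Leaving out pool 2 left 1 of the 4 falls of this list called.

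Genes described as Myc targets in the cell cycle were lower as a group: 11 of 14 fell and 1 rose (median -1.40). These are 78.6% and 7.14%, beside 18.1% and 14.5% of all genes, and the counts were the same with every left-out array or pool. Plk1, a mitotic kinase, fell by 2.51 ± 0.22 (SE, log2) and also stands in the cell division list. Plk4, which starts centriole duplication, fell by 2.47 ± 0.11, the kinase subunit genes Cks1b and Cks2 by 1.83 ± 0.13 and 1.17, and Mcm5, a subunit of the replicative helicase, by 1.66 ± 0.17. The exception, named after its values were seen, was Ccnd2, a G1 cyclin, which rose by 1.39 ± 0.20 (limma adjusted p = 0.00113). All cell division markers fell in the same samples, as given above.

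Targets in the nucleolus and in cell growth were less uniform. Of 59 measured genes 15 fell and 5 rose, 25.4% and 8.47% beside 18.1% and 14.5% of all genes, and 39 were not called (median -0.27, against -0.0021 over all genes). The share called in either direction, 33.9%, was close to the 32.6% of all genes. Hk2, a hexokinase, fell by 2.33 ± 0.18 (SE, log2), Srm, the spermidine synthase, by 1.98 ± 0.12 and Tmem97 by 1.82 ± 0.17. Dusp2, a phosphatase of MAP kinases, rose by 3.27 ± 0.34. The bright member Odc1, the first enzyme of polyamine synthesis, fell by 0.76 ± 0.22 and lost its call in 9 of 19 alternatives, among them 5 of 6 left-out arrays. Tfrc, the transferrin receptor gene, fell by 0.60 and was not called without pool 2 (limma adjusted p = 0.0760), without pool 3 (0.0514) or with median centring (0.0731). The nucleolar genes Ncl and Npm1, named after their values were seen, missed the threshold, with -0.86 ± 0.29 (limma adjusted p = 0.0569) for Ncl and -0.23 ± 0.12 for Npm1. The balance of this list rests on the scaling: with each array centred on its median 15 rose and 9 fell (median -0.04), while all genes moved to a median of 0.23. The falls numbered 23 with the pools as a block, 9 without presort replicate 2 or 3 and 7 without pool 2 or pool 3. With the mean of probe sets 11 rose and 20 fell.

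The E-box stood in the promoter of 17 of the 53 genes of this list with a promoter in the table (32.1%, against 10.2% of named genes on the array). Of these 17 genes 17.6% fell and 11.8% rose, against 27.8% and 5.56% of the 36 without it. The shares rest on few genes and were not tested. Ldha, the lactate dehydrogenase subunit, fell by 1.18 ± 0.16 (SE, log2) and held 2 E-boxes. They are shown here because Ldha is the gene with the largest fall among those 17.
Ldha, distal (chr7:46845635-46845688, plus strand): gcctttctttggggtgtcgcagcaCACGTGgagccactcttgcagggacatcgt
Ldha, proximal (chr7:46845732-46845785, plus strand): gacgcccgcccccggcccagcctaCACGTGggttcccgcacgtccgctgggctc
Dusp2, the gene of the list with the largest rise, held one as well.
Dusp2 (chr2:127336026-127336079, plus strand): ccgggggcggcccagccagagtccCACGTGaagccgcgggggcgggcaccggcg
A target gene with this word thus stood on either side of the comparison, and a match of these letters is a description, not a bound site.

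Of 11 genes described as repressed through Myc and its partner Miz1, 4 rose and 2 fell (median 0.18). These shares, 36.4% and 18.2%, stand beside 14.5% and 18.1% of all genes. Gadd45b, a stress-induced growth arrest gene, rose by 1.85 ± 0.12 (SE, log2), and the antiproliferative genes Btg2 and Btg1 rose by 1.19 ± 0.17 and 1.11 ± 0.11. Ndrg1 fell by 0.78 ± 0.11. With an array or pool left out, 3 to 4 rose and 1 to 2 fell. The cyclin-dependent kinase inhibitor genes of this list, named after their values were seen, did not pass: Cdkn1a stood at -0.44, Cdkn1b at 0.18, Cdkn1c at 0.18 and Cdkn2b at 0.08. Btg2 also stands in the immediate early list, most of which rose.

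Of 20 genes that act on the level of Myc protein 7 rose and 4 fell (median 0.33), 35% and 20% beside 14.5% and 18.1% of all genes. Genes known to raise that level and genes known to lower it stood on both sides. The Pim kinases, which phosphorylate and stabilise Myc, all rose: Pim2 by 2.69 ± 0.17 (SE, log2), Pim3, named after its values were seen, by 1.65 ± 0.16 and Pim1 by 1.24 ± 0.11. Fbxo32, an F-box protein of ubiquitin ligases, rose by 2.40 ± 0.27, and Fbxw7, the F-box protein that marks phosphorylated Myc for destruction, by 0.87 ± 0.13. The latter was named after its values were seen, as were the F-box gene Skp2 and Cip2a, an inhibitor of the phosphatase that acts on Myc, both called lower (Cip2a at -2.21). The mitotic kinase genes Aurka and Aurkb fell by 2.69 ± 0.17 and 2.45 ± 0.22, and both also belong to the cell division list. Ppp2r5a, a regulatory subunit of that phosphatase, stood at 0.50 and did not pass (limma adjusted p = 0.0862), but it was called with the pool as a block (0.0289) and in 3 other alternatives. Zbtb17, which encodes Miz1 and was also named after its values were seen, rose by 1.03 ± 0.11. The counts of falls were 4 with every left-out array or pool, and those of rises 6 to 9.

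Of 18 coactivator genes 4 rose and 1 fell (median 0.08), beside 14.5% and 18.1% of all genes: the chromatin remodeler genes Smarca4 and Bptf rose by 1.22 ± 0.18 and 1.03 ± 0.13 (SE, log2), the elongation kinase gene Cdk9 by 0.79 and the acetyltransferase gene Crebbp by 0.72. The rises of Cdk9 and Crebbp were not called without pool 3 (limma adjusted p of 0.0949 and 0.0575), which left 2 called. With the beta-actin covariate Cdk9 missed as well (0.0829). With each array centred on its median 7 rose and none fell. The 1 fall was that of Wdr5 at -0.32, named after its values were seen, and no fall was called without presort replicate 2 or 3, sorted replicate 3, pool 2 or pool 3, or with median centring. Of 16 genes of the Sin3 corepressor, which the Mxd proteins and Mnt recruit, 2 rose (12.5%, beside 14.5% of all genes) and none fell (median 0.07). Arid4b rose by 0.75 ± 0.12 and Ing2 by 0.54 ± 0.15, the call of Ing2 being lost in 8 of 19 alternatives. The histone-binding genes Rbbp4 and Rbbp7 stood at -0.43 (limma adjusted p = 0.0538) and -0.22 and did not pass. Rbbp4 was called lower in 4 of 19 alternatives, among them the fit without _x_at and _s_at probe sets (-1.22, adjusted p = 0.00343), and Rbbp7 in 2 (-0.48, 0.0105 in that same fit). With the pool as a block or with the mean of probe sets 3 genes of this list rose and 1 fell. With median centring 5 of them rose, and with 1 array or pool left out 1 or 2. The scaffold genes Sin3a and Sin3b, named after their values were seen, stood at 0.10 and 0.37 and did not pass.

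Of the 15 measured genes of the Polycomb complex that holds Mga, 3 rose and 4 fell (median 0.01), 20% and 26.7% beside 14.5% and 18.1% of all genes. With median centring there were 5 rises and 2 falls. Tfdp1, the partner of E2F factors, fell by 2.41 ± 0.18 (SE, log2), its relative Tfdp2 by 0.86 ± 0.14 and E2f6, the E2F protein of the complex, by 0.85 ± 0.21. The call of E2f6 was lost without presort replicate 2 (limma adjusted p = 0.0523), presort replicate 3 (0.0623) or pool 3 (0.0830) and with median centring (0.0517). Rnf2, a ubiquitin ligase subunit of Polycomb complexes, rose by 0.82 ± 0.14, and Pcgf6 and Cbx1, named after their values were seen, by 0.53 and 0.63. Leaving out any single presort array, pool 2 or pool 3 left 1 rise, and 2 falls were called without presort replicate 2 or 3 or pool 3. Yaf2, a subunit that binds the Polycomb ligase, did not pass at -0.14, but was called lower with the mean of probe sets (-0.46, limma adjusted p = 0.00631). Mga itself was higher in the same samples, as given above.

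**Figure D3:**
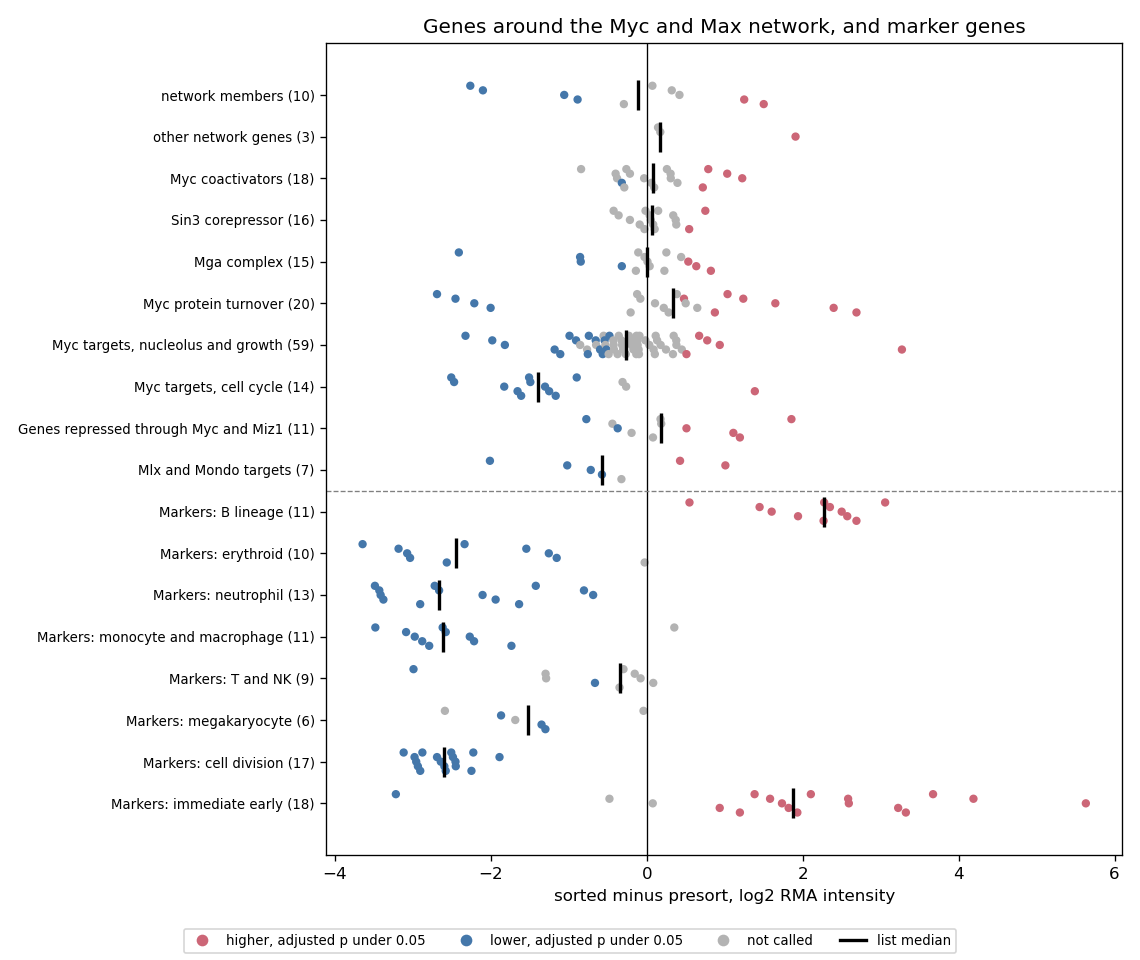
Sorted minus presort difference (horizontal axis, log2 RMA intensity) of each measured gene, by list, with the number of genes in parentheses; colours mark the call and black bars the list median. The medians of the lists around the network lie between -1.40 (targets in the cell cycle) and 0.33 (Myc protein turnover), and those of the marker lists below the dashed line between -2.66 (neutrophil) and 2.27 (B lineage).

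The genes most like a member over the 6 arrays were ranked by Pearson correlation, as a description. For Myc these were Slc27a4, Sytl1, Uap1l1, Ddx11 and Paqr7 (r from 0.998 to 0.999), and 185 genes exceeded 0.99. Both groups went into r, so the difference between the groups is part of it. For Max they were Rab36, Rab24, Actl6a, Clic1 and Foxn2 (r from 0.985 to 0.995), of which Actl6a is also in the coactivator list. For Mycn they were Adam21, Dalir, Clta, Lor and Ins2 (r from 0.978 to 0.985), and none exceeded 0.99.

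**Figure D4:**
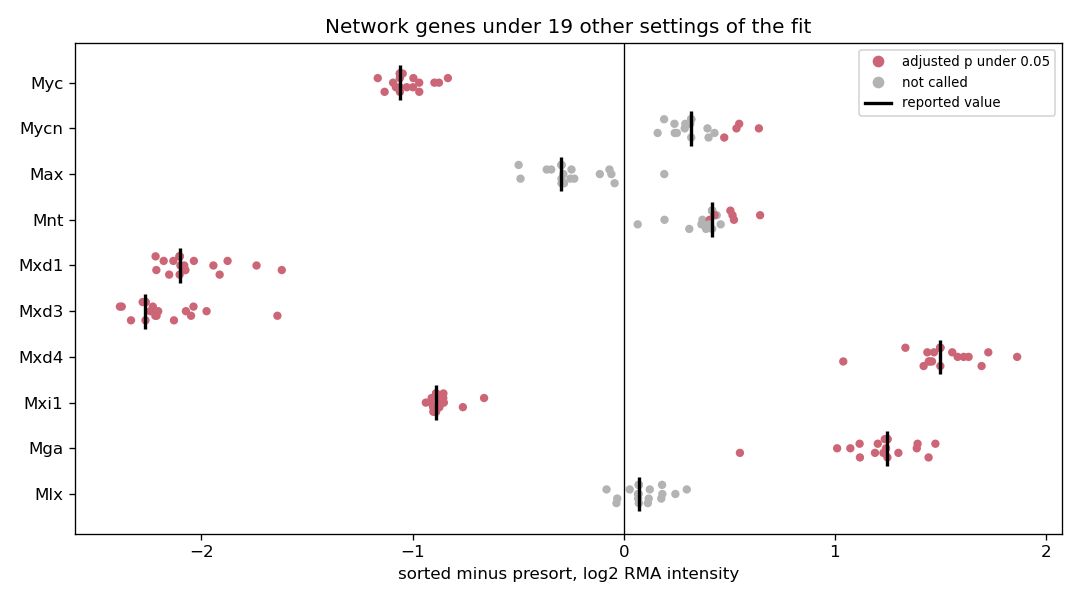
Sorted minus presort difference (horizontal axis, log2 RMA intensity) of each network gene in the reported fit (black bars) and under 19 alternatives (points, coloured where the adjusted p was under 0.05). The 6 called genes keep their call under every alternative shown, Mnt and Mycn are called under some, and Max and Mlx cross 0.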

How the data were processed

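The authors deposited linear intensities and made them by RMA, as named in the submitters' processing notes; its version was not given in the sources used here. Labelling started at the 3' end of Trizol-extracted RNA, per the labels' protocols, so degraded RNA lowers 5' probe sets more. Values ran from 9.71 to 38492.08 with a median of 66.01 on each array, so the arrays share 1 distribution and a change in total RNA leaves no trace. Log2 was taken with no pseudocount. Of 45101 probe sets, 34945 carried 1 symbol and gave 18193 genes; 932 carried several, 9160 had no symbol here and 64 were controls. Without detection calls or counts, the number of arrays limits the precision, and changes of dim genes are understated.

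The difference between sorted and presort samples was fitted, with no term for the pool, in R 4.3.3 by limma 3.58.1 (lmFit, eBayes, 4 residual degrees of freedom). Its two-sided p-values were Benjamini-Hochberg adjusted over all genes, or all single-symbol probe sets, with a threshold of 0.05. The members, lists, tests and alternatives were chosen with earlier results of these data known, so lists are described by counts and medians and not tested. The text names every member, up to 4 called genes of a list with the largest differences, its 2 brightest genes and the 5 genes most like Myc, Mycn and Max, except that marker lists are mostly given as counts; others are said to be named after their values were seen. Lists held 261 measured genes, 7 of them in more than 1 list.

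The labels give same-numbered presort and sorted samples 1 source pool, which pairs them. Across genes, their deviations from the group means had correlations of 0.39, 0.20 and -0.03 for pools 1, 2 and 3. Presort and sorted samples of unlike number gave -0.35 to 0.25. Presort 3 with sorted 2 (0.25) and presort 2 with sorted 3 (0.18) exceeded the matched values of pools 2 and 3. The pairing of these 2 pools thus rests on the labels. Alternatives were the pool as a block, each array and pool left out, no dim genes, median centring, quantile normalization over genes, mean probe sets, leaving out those named _x_at or _s_at, trend and robust prior, array weights, a beta-actin covariate and log2(intensity + 32); those of the probe set fit were added after seeing the data. On simulated data with 18193 genes and 200 changed, 75% of changes of 1 and 94% of changes of 2 (log2) were recovered, with 2 false calls. The simulated noise was independent between genes and arrays, while in the real data 5925 genes were called. These figures therefore do not give the recovery or the false calls of the real comparison. Proteins of the members were not compared here. Figures were drawn with matplotlib 3.10.9.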

Additional observations from a re-analysis of the deposited data

How the results depend on the processing

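The calls of Myc, Mxd1, Mxd3, Mxd4, Mxi1 and Mga held under all 19 alternatives, with adjusted p (limma) of at most 0.0212, and the differences ran from -1.16 to -0.83 for Myc, -2.22 to -1.62 for Mxd1, -2.39 to -1.64 for Mxd3, -0.94 to -0.66 for Mxi1, 1.04 to 1.86 for Mxd4 and 0.55 to 1.48 for Mga. Leaving out dim genes, or probe sets named _x_at or _s_at, could not change the differences of these genes, only their SE and adjusted p. With a 2-fold difference asked for besides, 5 members passed. Mnt passed in 7 alternatives and Mycn in 4. Signs turned for Max with the beta-actin covariate (0.19) and for Mlx without sorted replicate 3 (-0.081, against up to 0.18 without other arrays), without pool 3 (-0.035) and with the mean of probe sets (-0.031). Over all genes, 5925 were called, 2629 of them higher; without pool 3 these were 3906 and 1544, and with median centring 5162 were higher (66.7% of calls, against 44.4%, and 54.3% with quantile normalization over genes), the median of all genes moving to 0.23. Left-out arrays gave 4627 to 5864 calls. With the replicate block 6408 genes were called, and among members it changed only the call of Mnt. The cause of these shifts was not tested.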

Other observations

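Over the 14452 named genes on the array with a RefSeq promoter, those whose promoter held the E-box CACGTG were called somewhat more often in both directions. After the sort 18.3% of 1479 such genes were higher and 21% lower, against 14.3% and 18.3% of the 12973 others, and the medians of their differences were 0.0001 and -0.0054 (log2). These shares were not tested, and genes with and without the word may differ in level. In the immediate early list 3 of 15 genes with a promoter held the word (Egr2, Dusp1 and Klf4, named after their values were seen), and all 3 rose, as did 83.3% of the 12 without it. None of the 14 cell division genes, 12 neutrophil markers, 7 B lineage markers or 7 erythroid markers with a promoter held it in this window. The same was true of 7 monocyte and macrophage and 7 T and NK markers, while 1 of 5 megakaryocyte markers held it. Over named genes on the array the share was 10.2%, and these lists are small.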
